A study of Danio rerio with 4 samples.

Results

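The genes described here are 9 zebrafish genes of meiotic arrest and egg growth: mos, wee2, fbxo43, btg4, slbp2, org, gdf9, bmp15 and figla. They were picked by gene symbol, with earlier results of these data known, and all 9 were found once each among the 31870 gene identifiers of the deposited expression table. RNA depleted of ribosomal RNA was sequenced from whole embryos in 4 libraries, 1 for each group: maternal ybx1 mutant embryos (labelled Mybx1) at 6 hours post fertilisation (hpf), Mybx1 at 0 hpf, wild type (WT) at 6 hpf and WT at 0 hpf. The gene ybx1 encodes an RNA-binding protein of maternal messenger ribonucleoprotein particles. The mutant allele, the genotype of the fathers, the strain and the number of embryos or clutches behind a library are not stated in the labels. Each group therefore has 1 library and no replicate error, and every difference compares libraries, with intervals that cover counting error only.

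A fish egg is laid arrested in the second meiotic division and stocked with RNA made in the ovary. The kinase Mos and the inhibitor Fbxo43 (also called Emi2) hold this arrest, Mos through the MAP kinase cascade and Fbxo43 by blocking the anaphase-promoting complex. Gdf9 and Bmp15 are secreted ligands of the TGF-beta superfamily with which the oocyte signals to the follicle cells around it, and Figla is a transcription factor that sets up oocyte gene expression. After fertilisation maternal RNA is removed while the embryo starts its own transcription.

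Levels are given in FPKM, fragments scaled to gene length and to the size of the library, so they are shares of a library and would not show that an embryo had lost or gained RNA as a whole. In these whole embryos fewer cells that hold a transcript and less of it per cell cannot be told apart. Nor can RNA kept from the egg and RNA made since be told apart at 6 hpf. The words kept, lost and stayed below describe FPKM only. The word egg, where used below of a library or a level, means the samples labelled 0 hpf and nothing more. The library totals recovered from the FPKM values lay between 6042830 and 7570070 reads. The label of the mutant was borne out by ybx1 itself, at 54.2 FPKM in Mybx1 against 2287 FPKM in WT at 6 hpf, and at 11.9 FPKM in Mybx1 against 338 FPKM in WT at 0 hpf. As a look at stage, 8 zygotic genes summed to 344 FPKM in Mybx1 at 6 hpf, against 1.32 FPKM in Mybx1 at 0 hpf, and to 1578 FPKM in WT at 6 hpf, against 0.786 FPKM in WT at 0 hpf. In Mybx1 at 6 hpf only 2 of the 8, aplnrb (316 FPKM in Mybx1, 61.2 FPKM in WT) and vox (25.5 FPKM in Mybx1, 224 FPKM in WT), reached 1 FPKM, against 8 of 8 in WT. At 6 hpf 7 of the 8 were lower and 1, aplnrb, was higher in Mybx1 than in WT, with a median difference of log2(FPKM + 1) of -6.70. The libraries at 6 hpf thus share the hour of the label but not the level of these zygotic genes. The part of such a difference in developmental state in the results at 6 hpf below was not tested. Of 11 matched markers of follicle somatic cells, cyp17a1, a steroid-synthesis enzyme, had 82.5 FPKM in Mybx1 and 48.8 FPKM in WT at 0 hpf, and the other 10 stayed at 0.253 FPKM or below at 0 hpf, with 6 of the 11 at 0 reads in each of these libraries. The summed level of the follicle list was 77.9 FPKM in Mybx1 and 4.51 FPKM in WT at 6 hpf, and 83.2 FPKM in Mybx1 and 49.5 FPKM in WT at 0 hpf. Only 1 gene of the list, cyp17a1, reached a mean of 1 FPKM in each comparison of 2 libraries. Its log2(FPKM + 1) difference of 6 to 0 hpf was -0.14 in Mybx1 and -4.23 in WT. The part of the follicle list in the results below was not tested.

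In WT, the transcripts of all 9 genes fell between the egg and the start of gastrulation, and in Mybx1 they stayed far more abundant. Summed over the 9 genes, the level was 1200 FPKM in Mybx1 at 6 hpf, against 3278 FPKM in Mybx1 at 0 hpf, and 62.7 FPKM in WT at 6 hpf, against 2847 FPKM in WT at 0 hpf. Each gene kept between 18.4% and 93.05% of its 0 hpf level in Mybx1, and at most 5.73% in WT, leaving out figla, which had 0 reads in WT at 6 hpf. A gene was called higher or lower when its log2(FPKM + 1) values differed by at least 1 (2-fold) and the mean of the 2 libraries was at least 1 FPKM, a minimum that all 9 genes met in every comparison. The verbs rose and fell are used below only of such calls.

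**Figure D1:**
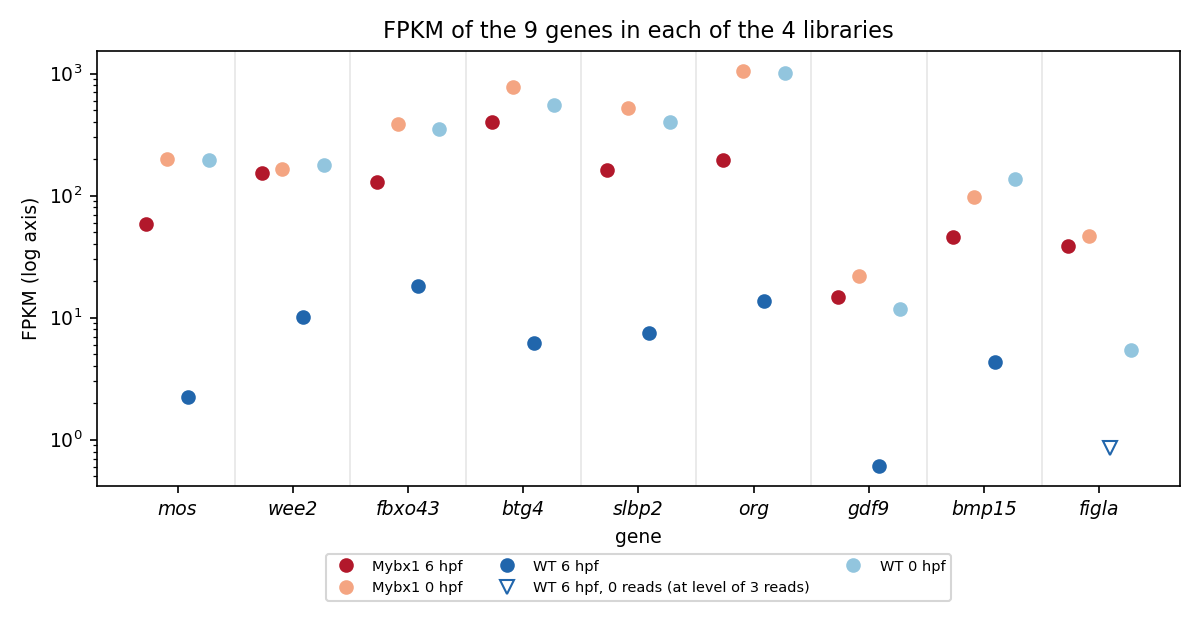
FPKM (log axis) of the 9 genes in the libraries Mybx1 6 hpf, Mybx1 0 hpf, WT 6 hpf and WT 0 hpf, 1 point per library; the open triangle marks figla in WT at 6 hpf, which had 0 reads, at the level of 3 reads (0.857 FPKM). The dark blue WT 6 hpf points lie lowest for every gene, between 0 and 18.1 FPKM, while the dark red Mybx1 6 hpf points lie between 14.9 and 401 FPKM.

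The genes of meiotic arrest were abundant in the eggs of both genotypes. The mos transcript, which encodes the kinase that activates the MAP kinase cascade in the egg, had 58.0 FPKM in Mybx1 at 6 hpf, 199 FPKM in Mybx1 at 0 hpf, 2.25 FPKM in WT at 6 hpf and 195 FPKM in WT at 0 hpf. The libraries at 0 hpf were within counting error of each other for mos, with a ratio of Mybx1 to WT of 1.02 (95% counting interval 0.955 to 1.09). The fall over time was 3.43-fold in Mybx1 (3.08 to 3.82) and 86.5-fold in WT (53.9 to 149). At 6 hpf mos was 25.8-fold higher in Mybx1 than in WT (15.9 to 44.6).

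The wee2 transcript, which encodes an oocyte kinase that restrains Cdk1 in mouse, had 154 FPKM in Mybx1 at 6 hpf, 165 FPKM in Mybx1 at 0 hpf, 10.1 FPKM in WT at 6 hpf and 177 FPKM in WT at 0 hpf. In Mybx1 wee2 kept 93.05% of its 0 hpf level, and its 2 Mybx1 libraries differed by 1.07-fold (1.003 to 1.15). In WT wee2 fell 17.4-fold (14.3 to 21.5). The 3 libraries other than WT at 6 hpf were close together for this gene, and WT at 6 hpf was 15.1-fold below Mybx1 at 6 hpf (12.3 to 18.7).

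The fbxo43 transcript, which encodes the inhibitor of the anaphase-promoting complex, had 129.5 FPKM in Mybx1 at 6 hpf, 388 FPKM in Mybx1 at 0 hpf, 18.1 FPKM in WT at 6 hpf and 350.0 FPKM in WT at 0 hpf. It fell 3.0-fold in Mybx1 (2.74 to 3.27) and 19.4-fold in WT (15.7 to 24.1). At 6 hpf it was 7.16-fold higher in Mybx1 than in WT (5.76 to 9.0), an interval that overlaps that of bmp15 below.

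The genes that act on maternal and histone mRNA, btg4 and slbp2, ranked among the first 3 of the 9 by FPKM in each library except WT at 6 hpf. The btg4 transcript, which encodes an adaptor of the CCR4-NOT deadenylase that drives maternal mRNA decay in mouse, had 401 FPKM in Mybx1 at 6 hpf, 783 FPKM in Mybx1 at 0 hpf, 6.22 FPKM in WT at 6 hpf and 556 FPKM in WT at 0 hpf. In WT btg4 fell 89.4-fold (60.0 to 140), while the Mybx1 libraries differed by 1.95-fold (1.84 to 2.07), just short of the call. At 6 hpf btg4 was 64.5-fold higher in Mybx1 than in WT (43.2 to 101), and at 0 hpf the ratio was 1.41 (1.34 to 1.48).

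The slbp2 transcript, which encodes an egg form of the stem-loop binding protein of histone mRNA, had 163 FPKM in Mybx1 at 6 hpf, 519 FPKM in Mybx1 at 0 hpf, 7.48 FPKM in WT at 6 hpf and 402 FPKM in WT at 0 hpf. It fell 3.18-fold in Mybx1 (2.96 to 3.42) and 53.8-fold in WT (39.9 to 74.1). The Mybx1 library was 21.8-fold above WT at 6 hpf (16.1 to 30.2) and 1.29-fold above it at 0 hpf (1.23 to 1.36). The oogenesis-related gene org, known by its expression in oocytes, had 195 FPKM in Mybx1 at 6 hpf, 1059.6 FPKM in Mybx1 at 0 hpf, 13.6 FPKM in WT at 6 hpf and 1013 FPKM in WT at 0 hpf. It was the most abundant of the 9 in both 0 hpf libraries and lost the most in Mybx1, where it fell 5.44-fold (5.09 to 5.81), against 74.6-fold in WT (59.2 to 95.2). Even so, org stayed 14.3-fold above WT at 6 hpf (11.3 to 18.5).

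Of the growth factors, bmp15 had 45.7 FPKM in Mybx1 at 6 hpf, 97.0 FPKM in Mybx1 at 0 hpf, 4.37 FPKM in WT at 6 hpf and 137 FPKM in WT at 0 hpf. It was the gene of the 9 furthest below WT in mutant eggs, with a ratio of 0.709 (0.651 to 0.771), short of the 2-fold call. The bmp15 level fell 2.12-fold over time in Mybx1 (1.88 to 2.40), an interval that reaches below 2-fold, and 31.3-fold in WT (22.5 to 45.0). At 6 hpf bmp15 was 10.5-fold higher in Mybx1 than in WT (7.42 to 15.2).

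The other growth factor, gdf9, was much less abundant. It had 14.9 FPKM in Mybx1 at 6 hpf, 22.0 FPKM in Mybx1 at 0 hpf, 0.611 FPKM in WT at 6 hpf and 11.7 FPKM in WT at 0 hpf, where the WT level at 6 hpf rests on 8 reads. At 0 hpf gdf9 was 1.88-fold higher in Mybx1 than in WT (1.57 to 2.26), on the other side of WT from bmp15 and just short of the 2-fold call. The Mybx1 libraries differed by 1.48-fold (1.23 to 1.78), and in WT gdf9 fell 19.2-fold (9.53 to 45.1). At 6 hpf it was 24.4-fold higher in Mybx1 than in WT (12.1 to 57.3).

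The figla transcript, which encodes a basic helix-loop-helix factor of the oocyte, differed from the other 8 genes in the egg itself. It had 38.9 FPKM in Mybx1 at 6 hpf and 46.4 FPKM in Mybx1 at 0 hpf, against 0 reads in WT at 6 hpf and 5.42 FPKM (23 reads) in WT at 0 hpf. Both Mybx1 libraries lay above both WT libraries, as they also did for gdf9. At 0 hpf figla was 8.56-fold higher in Mybx1 than in WT (5.54 to 13.8), the only one of the 9 called at that stage. Against the level of 3 reads in WT at 6 hpf, figla was at least 45.4-fold higher in Mybx1 at 6 hpf. By the same bound it was at least 6.32-fold lower in WT at 6 hpf than at 0 hpf. The Mybx1 libraries did not differ beyond counting error, with a ratio of 6 to 0 hpf of 0.840 (0.667 to 1.05).

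**Figure D2:**
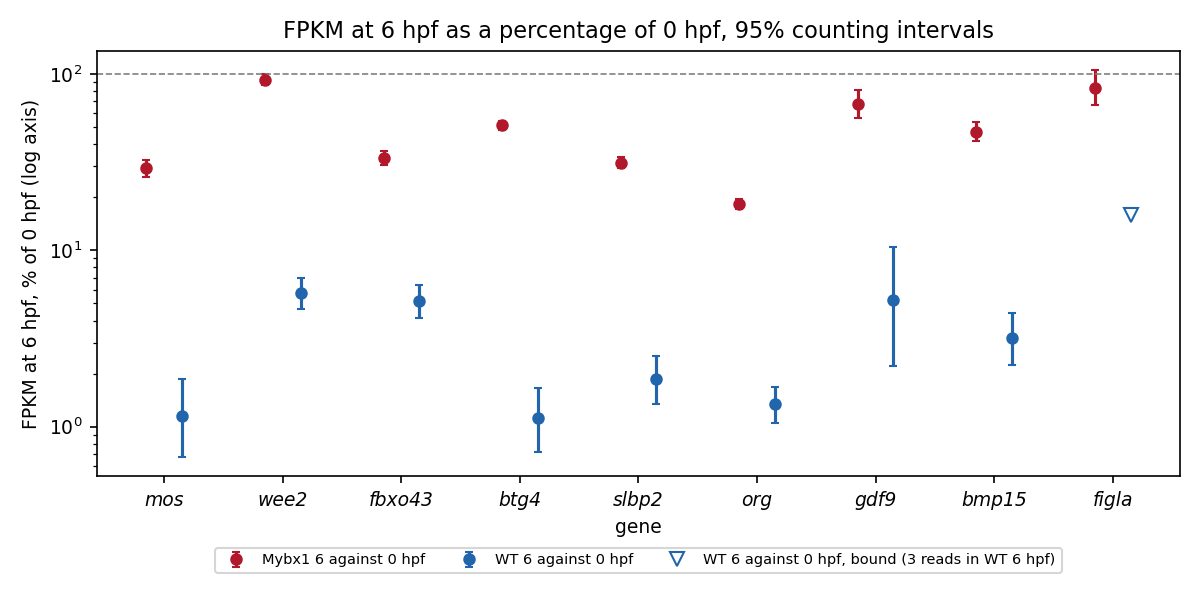
FPKM at 6 hpf as a percentage of that at 0 hpf (log axis) for each of the 9 genes, in Mybx1 (red, left of each pair) and WT (blue, right), with 95% counting intervals; the open triangle is the upper bound for figla in WT (15.8%, from 3 reads), and the dashed line marks 100%. The Mybx1 points spread between 18.4% (org) and 93.05% (wee2), and the 8 measured WT points lie between 1.12% (btg4) and 5.73% (wee2).

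Counted over the 9 genes, 5 fell and none rose in Mybx1 at 6 against 0 hpf, and btg4, wee2, gdf9 and figla stayed within 2-fold. Of all 14790 genes counted in that comparison 7.10% were called lower and 7.67% higher. In WT all 9 fell, against 41.1% of 15031 genes called lower and 24.2% called higher. Since 8 of the 9 genes reached 10 FPKM in both 0 hpf libraries, the same shares were taken over all 7694 counted genes that did so, and they came to 9.75% in Mybx1 and 54.3% in WT. This cut does not match the level of the 9 genes, whose median at 0 hpf was 199 FPKM in Mybx1 and 195 FPKM in WT. The gene figla, at 5.42 FPKM in WT at 0 hpf, did not reach it. The median difference of log2(FPKM + 1) over the 9 genes was -1.07 in Mybx1 and -4.68 in WT, beside medians of -0.08 and -0.57 over all genes counted in each of the same comparisons. With median-ratio scaling bmp15 in Mybx1 lay at -0.9997, just short of the call, which left 4 of 9 genes called lower.

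The change over time differed between the genotypes in the same direction for each of the 9 genes. Of the 8 genes with reads in all libraries, the ratio of 6 to 0 hpf in Mybx1, divided by that in WT, was between 45.8 for btg4 (30.5 to 71.9) and 6.46 for fbxo43 (5.15 to 8.18), though the interval of btg4 overlaps that of mos and the interval of fbxo43 that of gdf9. It was 25.2 for mos (15.5 to 43.9), 16.9 for slbp2 (12.4 to 23.5) and 16.2 for wee2 (13.1 to 20.3). Among the growth factors this quotient was 14.8 for bmp15 (10.3 to 21.6) and 13.0 for gdf9 (6.23 to 31.1), intervals that overlap widely. For org it was 13.7 (10.8 to 17.7) and for figla at least 5.31. All 9 genes passed 2-fold in this quotient on the log2(FPKM + 1) scale, as did 37.0% of 15376 genes. Among the genes with at least 10 FPKM in both 0 hpf libraries, 48.2% did.

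**Figure D3:**
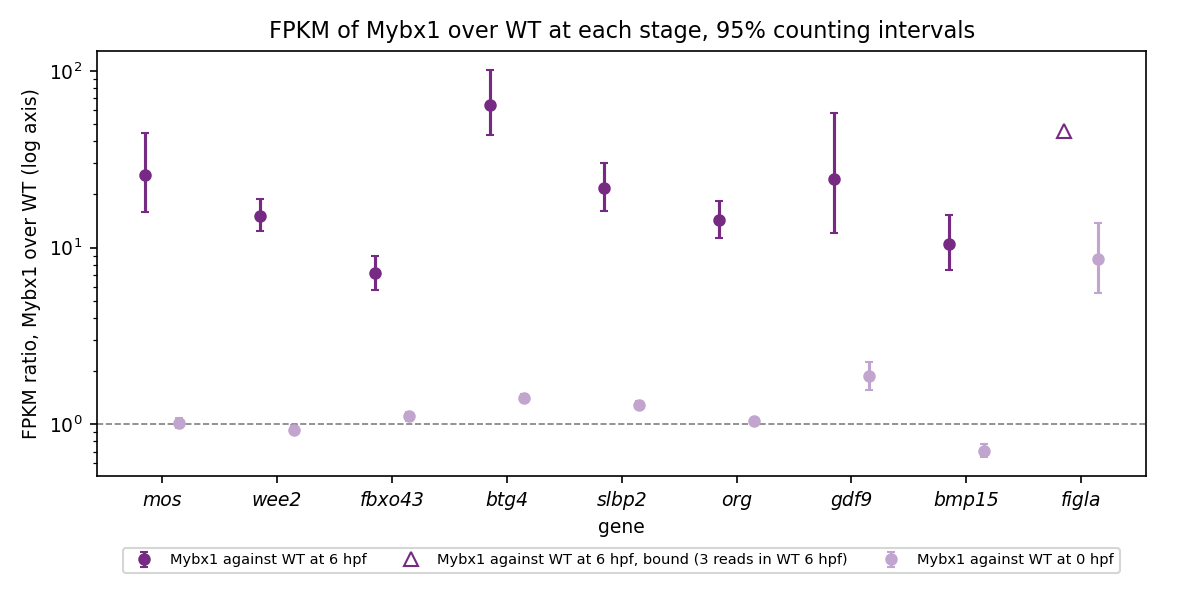
FPKM in Mybx1 divided by that in WT (log axis) for each of the 9 genes at 6 hpf (dark, left of each pair) and 0 hpf (pale, right), with 95% counting intervals; the open triangle is the lower bound for figla at 6 hpf (45.4-fold), and the dashed line marks a ratio of 1. All ratios at 6 hpf lie above 7, while at 0 hpf 8 of the 9 lie between 0.709 and 1.88 and figla stands at 8.56.

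Set against WT, Mybx1 had all 9 transcripts in excess at 6 hpf, whereas at 0 hpf 8 of the 9 were within 2-fold of WT. At 6 hpf all 9 were higher in Mybx1, where 38.2% of 15790 genes were higher and 20.8% lower. Of the genes with at least 10 FPKM in both 0 hpf libraries, 47.9% were higher. The median difference of log2(FPKM + 1) at 6 hpf was 3.79 over the 9 genes and 0.49 over all genes counted. At 0 hpf figla was called higher and none lower, beside 8.85% of 13811 genes called higher and 6.70% called lower, and the median was 0.15 over the 9 genes and 0.07 over all. These comparisons share libraries with the changes over time, so they are not separate evidence. Median-ratio scaling moved the median of all counted genes to -0.24 for Mybx1 against WT at 6 hpf and to 0.16 for WT at 6 against 0 hpf, and higher calls made up 42.2% in place of 64.8% and 56.2% in place of 37.0% of all calls. Under that scaling all 9 genes kept their calls in these 2 comparisons, with smaller medians over the 9 genes of 3.08 for Mybx1 against WT at 6 hpf and -4.03 for WT at 6 against 0 hpf.

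The order of the 9 genes by FPKM was nearly the same in both kinds of egg. In Mybx1 at 0 hpf it ran org, btg4, slbp2, fbxo43, mos, wee2, bmp15, figla and gdf9. In WT at 0 hpf the first 7 stood in the same order, and gdf9 and figla were exchanged. In Mybx1 figla was 2.10-fold above gdf9 per length (1.75 to 2.52), and in WT gdf9 was 2.16-fold above figla (1.40 to 3.49). Neighbours in these orders differed beyond counting error throughout. At 6 hpf the order in Mybx1 was btg4, org, slbp2, wee2, fbxo43, mos, bmp15, figla and gdf9, in which slbp2 and wee2 (ratio 1.06, 0.977 to 1.15) and bmp15 and figla (1.17, 0.960 to 1.44) did not differ beyond counting error. In WT at 6 hpf the first 6 genes were fbxo43, org, wee2, slbp2, btg4 and bmp15, and none of these could be told at this depth from the neighbour next to it among the 6. They were followed by mos, 1.94-fold below bmp15 (1.06 to 3.68), gdf9 and figla.

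Several of the 9 are egg forms of genes with a widely used counterpart. For 4 of the 9 a pair was singled out, apart from the rule for other named genes. The pair of btg4 and btg3 joins relatives rather than an egg form and its counterpart. The counterpart of wee2 is wee1, the kinase that restrains Cdk1 in dividing cells. It had 16.4 FPKM in Mybx1 at 6 hpf, 0.597 FPKM in Mybx1 at 0 hpf, 73.3 FPKM in WT at 6 hpf and 3.84 FPKM in WT at 0 hpf. The wee2 level stood above that of wee1 9.39-fold in Mybx1 at 6 hpf (8.34 to 10.6), 276-fold in Mybx1 at 0 hpf (167 to 495) and 46.1-fold in WT at 0 hpf (37.7 to 56.9). In WT at 6 hpf the order was turned, with a ratio of 0.138 (0.112 to 0.170). At 6 hpf wee1 was 4.48-fold lower in Mybx1 than in WT (3.98 to 5.06), and at 0 hpf 6.43-fold lower (3.72 to 11.9).

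The counterpart of fbxo43 is fbxo5 (Emi1), which inhibits the anaphase-promoting complex in mitotic cycles. The ratio of fbxo43 to fbxo5 was 1.16 in Mybx1 at 6 hpf (1.05 to 1.29), 1.13 in Mybx1 at 0 hpf (1.07 to 1.19), 0.0761 in WT at 6 hpf (0.0611 to 0.0937) and 1.09 in WT at 0 hpf (1.03 to 1.15). The level of fbxo5 itself fell 3.07-fold in Mybx1 (2.85 to 3.32), to 112 FPKM at 6 hpf against 343 FPKM at 0 hpf. In WT it stayed within 2-fold, with 238 FPKM at 6 hpf and 322 FPKM at 0 hpf. The intervals of the 2 Mybx1 libraries overlap, while in WT at 6 hpf fbxo5 was far more abundant than fbxo43.

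The histone mRNA binding protein gene slbp, counterpart of slbp2, had 369 FPKM in Mybx1 at 6 hpf, 519 FPKM in Mybx1 at 0 hpf, 495 FPKM in WT at 6 hpf and 317 FPKM in WT at 0 hpf, within 2-fold in every comparison as deposited. With median-ratio scaling slbp was called higher in WT at 6 against 0 hpf and lower in Mybx1 against WT at 6 hpf. The ratio of slbp2 to slbp was 0.442 in Mybx1 at 6 hpf (0.409 to 0.477), 0.999 in Mybx1 at 0 hpf (0.954 to 1.05), 0.0151 in WT at 6 hpf (0.0110 to 0.0203) and 1.27 in WT at 0 hpf (1.20 to 1.34). Among the relatives of btg4, which share its BTG domain, btg3 had 368 FPKM in Mybx1 at 6 hpf, 373 FPKM in Mybx1 at 0 hpf, 71.3 FPKM in WT at 6 hpf and 336 FPKM in WT at 0 hpf. The ratio of btg4 to btg3 was 1.09 in Mybx1 at 6 hpf (1.02 to 1.17) and 0.0872 in WT at 6 hpf (0.0553 to 0.132), against 2.10 in Mybx1 (1.996 to 2.21) and 1.65 in WT (1.56 to 1.75) at 0 hpf. The level of btg2 was 344 FPKM in Mybx1 at 6 hpf, 274 FPKM in Mybx1 at 0 hpf, 96.8 FPKM in WT at 6 hpf and 175 FPKM in WT at 0 hpf. The level of btg1 rose in both genotypes, with 11.04 FPKM at 6 hpf and 1.59 FPKM at 0 hpf in Mybx1, and 18.6 FPKM at 6 hpf and 2.15 FPKM at 0 hpf in WT. How reads shared between related genes were counted is not stated in the labels.

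**Figure D4:**
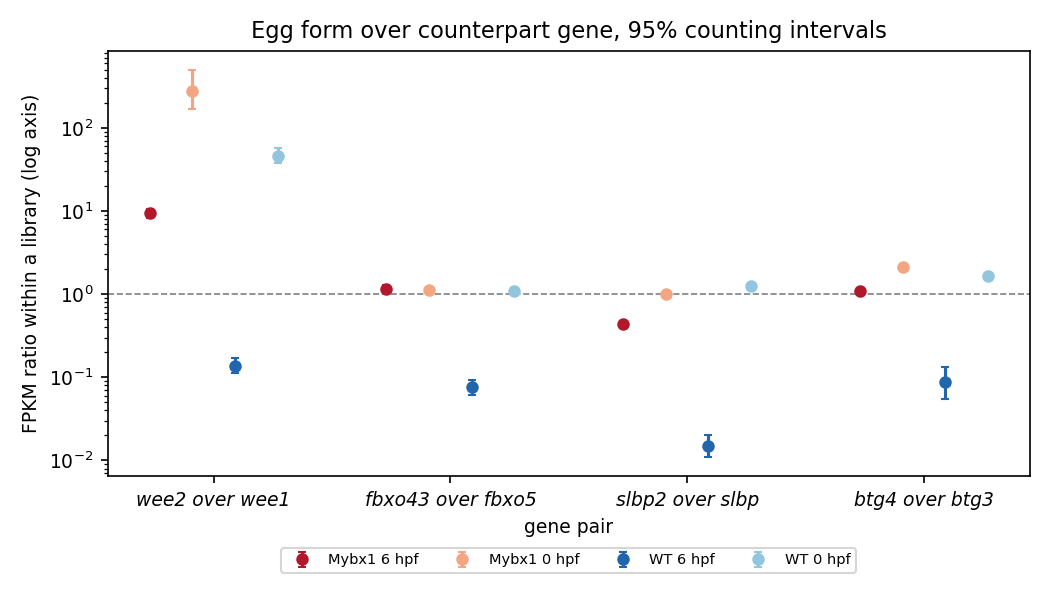
FPKM ratio within a library (log axis) for 4 gene pairs in Mybx1 6 hpf, Mybx1 0 hpf, WT 6 hpf and WT 0 hpf, with 95% counting intervals. Each ratio is that of an egg form to its counterpart gene, or of btg4 to its relative btg3. The dashed line marks equal levels. The dark blue WT 6 hpf points lie below 1 for all 4 pairs, between 0.0151 and 0.138, while the Mybx1 6 hpf points lie at 9.39, 1.16, 0.442 and 1.09.

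The 9 genes act with others in meiosis, mRNA decay, growth factor signalling, oocyte transcription and histone mRNA processing, and 5 lists of such partners were compared. By symbol, 87 of 133 listed genes were matched to a single identifier. The list counts at 6 hpf stand beside 38.2% of all genes higher and 20.8% lower in Mybx1. Those at 0 hpf stand beside 8.85% higher and 6.70% lower. In Mybx1 against WT at 6 hpf, 8 of 26 counted genes of meiotic arrest and maturation were higher and 4 lower, with a median difference of log2(FPKM + 1) of 0.33, beside 0.49 over all genes. With median-ratio scaling 5 of 27 were higher and 8 lower and the median was -0.37, beside -0.24 over all genes, so the direction of this list rests on the scaling. The 4 lower genes, named after their values were seen, were wee1, fbxo5, the kinase gene cdk1 and the progestin receptor gene paqr8. With TPM fbxo5 was not called. The kinase gene rps6ka1, of the Rsk family downstream of Mos and MAP kinase, was 14.7-fold higher in Mybx1 (9.32 to 24.4), with 38.3 FPKM in Mybx1 and 2.61 FPKM in WT. The adenylyl cyclase gene adcy9 was 8.76-fold higher (6.79 to 11.5), with 27.2 FPKM in Mybx1 and 3.10 FPKM in WT. At 0 hpf 1 of 27 was higher and 1, wee1, was lower. The higher one was cks2, a small Cdk1-binding subunit, with 5.95 FPKM in Mybx1 and 0.522 FPKM in WT, 11.4-fold apart (3.58 to 58.1). Its WT level was low, and the interval is wide.

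Of the BTG and CCR4-NOT list, 11 of 22 were higher in Mybx1 at 6 hpf and 1 lower, with a median of 1.06, beside 0.49 over all genes and 38.2% of all genes higher (47.9% of those with at least 10 FPKM in both 0 hpf libraries). None was called at 0 hpf. The lower one, named after its value was seen, was cnot1, the scaffold of the complex, with 24.6 FPKM in Mybx1 and 56.0 FPKM in WT, a call lost with TPM. With median-ratio scaling 8 were higher and 3 lower, and the median was 0.35, beside -0.24 over all genes. The gene pabpn1l, a poly(A)-binding protein of the oocyte that binds BTG4 in mouse, had 300.0 FPKM in Mybx1 and 14.7 FPKM in WT at 6 hpf, 20.4-fold higher (16.0 to 26.5). It kept near its egg level in Mybx1, where it had 348 FPKM at 0 hpf. The oocyte gene zar1l had 121 FPKM in Mybx1 and 5.50 FPKM in WT at 6 hpf, 22.0-fold higher (15.9 to 31.1). Over time 12 of 22 genes of this list fell and 2 rose in WT. In Mybx1 1 fell (zar1l) and 1 rose (btg1), beside 7.10% of all genes called lower and 7.67% higher. The WT count is near the background, with 41.1% of all genes and 54.3% of those with at least 10 FPKM in both 0 hpf libraries called lower. With median-ratio scaling 7 fell and 4 rose in WT.

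Only 12 of 35 genes of the list of TGF-beta receptors and Smads were matched, so it covers the pathway thinly. Of 10 counted at 6 hpf 4 were higher and 2 lower in Mybx1, with a median of 0.84, and none of 8 was called at 0 hpf. With median-ratio scaling the median was 0.06, beside -0.24 over all genes, and 2 of 12 were higher and 5 lower. Beyond the genes named next, and chosen after their values were seen, acvr2ab, smad2 and smurf1 were higher and smad1 was lower. The BMP type I receptor gene bmpr1ba had 47.2 FPKM in Mybx1 and 1.92 FPKM in WT at 6 hpf, 24.6-fold higher (16.5 to 38.3), and at 0 hpf 62.3 FPKM in Mybx1 and 57.6 FPKM in WT. The inhibitory Smad gene smad7 was 14.9-fold lower in Mybx1 at 6 hpf (9.11 to 25.9), with 1.97 FPKM in Mybx1 and 29.3 FPKM in WT. At 0 hpf smad7 had 0.575 FPKM in Mybx1 and 0.740 FPKM in WT, and in WT it rose 39.6-fold over time (19.8 to 92.6).

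Of the list of oocyte transcription factors and Figla partners, 10 of 15 genes were matched. The listed genes nobox, sohlh1, sohlh2 and lhx8a were not, so the counts say nothing about them. Of 9 counted genes 2 were higher and 5 lower in Mybx1 at 6 hpf. Their median was -1.10, which was also below 0 with TPM (-1.03) and median-ratio scaling (-1.68). The higher ones, named after their values were seen, were gtf2a1l and taf4b, and tcf12, id3 and taf7 were lower besides tcf3b and id1. With median-ratio scaling 1 was higher and 6 lower, since the call of gtf2a1l was lost and tcf3a was called lower. The E protein genes tcf3a and tcf3b encode the kind of partner with which FIGLA binds DNA in mouse. At 0 hpf tcf3a was 4.81-fold higher in Mybx1 than in WT (3.95 to 5.88), with 68.5 FPKM in Mybx1 and 14.2 FPKM in WT, and was the only gene of this list called higher at that stage, while taf7, named after its value was seen, was called lower. At 6 hpf it had 85.6 FPKM in Mybx1 and 129 FPKM in WT. In contrast tcf3b had 12.6 FPKM in Mybx1 and 13.0 FPKM in WT at 0 hpf, and was 7.33-fold lower in Mybx1 at 6 hpf (6.55 to 8.23). The gene id1, whose product sequesters E proteins, was 49.1-fold lower in Mybx1 at 6 hpf (29.1 to 90.3), with 2.30 FPKM in Mybx1 and 113 FPKM in WT. At 0 hpf id1 had 0.408 FPKM in Mybx1 and 0.263 FPKM in WT. In WT over time id1 rose 431-fold (119 to 3563) and tcf3b 8.04-fold (7.23 to 8.97). The interval of id1 is wide because its level at 0 hpf was near 0. Over the list 5 of 9 rose and 1 fell in WT, beside 24.2% of all genes higher and 41.1% lower. In Mybx1 1 of 9 rose and 0 fell, beside 7.67% higher and 7.10% lower.

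Of 13 counted genes of histone mRNA 3′ end processing 2 were higher and none lower in Mybx1 at 6 hpf, with a median of -0.29. They were lsm11, a subunit of the U7 particle that cuts histone pre-mRNA, with 118 FPKM in Mybx1 and 11.2 FPKM in WT (10.5-fold higher, 8.25 to 13.6), and eri1, an exonuclease that binds the histone stem-loop, with 40.1 FPKM in Mybx1 and 9.09 FPKM in WT (4.41-fold higher, 3.52 to 5.58). With median-ratio scaling these 2 were again higher, 7 were lower and the median was -1.04. At 0 hpf casp8ap2, a factor of histone mRNA processing, was the 1 gene of 12 called lower, with 33.5 FPKM in Mybx1 and 68.1 FPKM in WT (2.03-fold lower, 1.89 to 2.19).

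**Figure D5:**
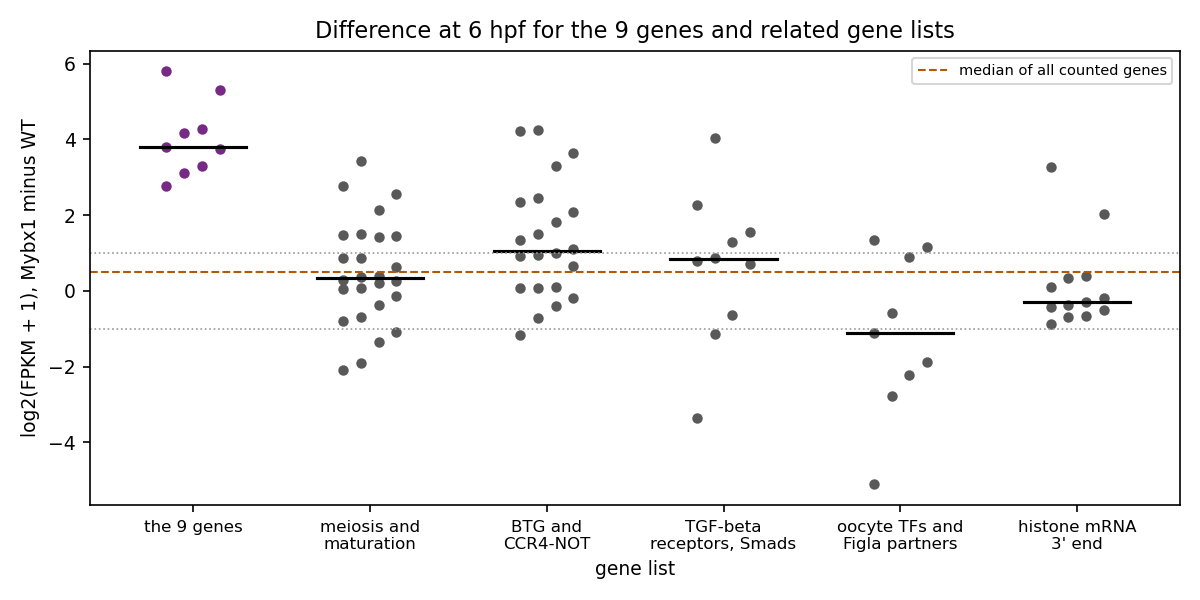
Difference of log2(FPKM + 1), Mybx1 minus WT at 6 hpf, for the 9 genes and the counted genes of 5 related lists, 1 point per gene; black bars are list medians, dotted lines mark 2-fold and the dashed line the median of all counted genes (0.49). The 9 genes lie between 2.77 and 5.80, and the lists have medians between -1.10 and 1.06; with median-ratio scaling the median of the meiosis list turns to -0.37.

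Genes with the most similar pattern over the 4 libraries were sought by the root mean square difference of log2(FPKM + 1), after subtracting each gene's mean, among genes other than the 9 reaching 10 FPKM in some library. With 4 points such a likeness is a description only. The nearest such genes to mos were ca15b (0.0625) and zar1l (0.148), to wee2 tatdn2 (0.0446) and pdgfc (0.0507), and to fbxo43 mthfd2l and poglut2 (0.132 each). The pseudocount of 1 understates the changes of genes near 0, so a small value need not mean like folds. In WT at 6 hpf mthfd2l had 0.249 FPKM against 18.1 FPKM for fbxo43, and pdgfc 0.499 FPKM against 10.1 FPKM for wee2. The nearest to btg4 were si:dkey-163f14.5 (0.112) and ripor3 (0.169), to slbp2 si:dkey-19b23.8 (0.112) and trmt9b (0.148), and to org kpna7 (0.281) and ca15b (0.293). The growth factor gdf9 was nearest to orc2 (0.0451) and si:dkey-20d21.12 (0.0693), and bmp15 to qrsl1 (0.0889) and itgb6 (0.0999). For figla they were spata18 (0.105) and VSTM2L (0.166). Between the 9 genes themselves, the closest pairs were mos with slbp2 (0.165), fbxo43 with bmp15 (0.258) and mos with org (0.269), the last nearer than any of the genes searched was to org.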

How the data were processed

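The authors deposited 1 table of FPKM values with a column for each of 4 libraries and none of another series. HTSeq 0.6.1, TopHat2 2.0.12, Bowtie2 2.2.3 and build GRCz10 appear in the submitters' processing notes, with no role given. Per the labels' protocols, libraries came from DNase-treated total RNA depleted of ribosomal RNA; strandedness and annotation release are not given in the sources used here.

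Low FPKM values are whole multiples of a step, from which library totals and the smallest whole reads per gene (88.8% to 93.3% of the totals) were recovered with Python 3.11.15 and scipy 1.17.1. The recovery was tested on simulated data. Exact conditional binomial 95% intervals (conditional odds ratio for quotients) use these reads; a gene at 0 gets a bound from 3 reads. The bound ignores counting error in the library it is compared with. Log2 differences used a pseudocount of 1, which understates changes of low genes.

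Symbols were found for 81.9% of 31870 identifiers, and listed genes needed a unique symbol. From each list of partners the text names the 2 genes furthest apart at 6 hpf and, up to 3 in all, those called at 0 hpf. Members and lists were chosen with earlier results of these data known. Sequences and coordinates are not used here.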

Additional observations from a re-analysis of the deposited data

Results flagged for a closer look

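Some genes differed between the genotypes in opposite directions at the 2 stages, or changed in opposite directions over time in the 2 genotypes, with counting intervals clear of a ratio of 1. With 1 library per group none of these differences was tested. The ratio of Mybx1 to WT was 15.1 at 6 hpf and 0.932 at 0 hpf for wee2, and 10.5 at 6 hpf and 0.709 at 0 hpf for bmp15. It was 14.7 at 6 hpf and 0.809 at 0 hpf for rps6ka1, 8.76 and 0.710 for adcy9, and 22.0 and 0.914 for zar1l, in the same order of stages. The turn was the other way for tcf3a (0.663 at 6 hpf and 4.81 at 0 hpf), fbxo5 (0.469 and 1.06) and slbp (0.746 and 1.64). The ratios at 0 hpf of wee2 (0.876 to 0.992), zar1l (0.867 to 0.963) and fbxo5 (1.01 to 1.12) lay close to a ratio of 1. Of the flagged genes, wee2 and bmp15 kept both directions with TPM and with median-ratio scaling. For the flagged genes of the lists this is not given here, so a ratio close to 1 may change sides with the scaling. Small differences at 0 hpf of mos and org, which are not flagged, did change sign. The ratio of 6 to 0 hpf was 1.22 in Mybx1 and 0.0992 in WT for adcy9, 0.711 in Mybx1 and 1.56 in WT for slbp, and 1.25 in Mybx1 and 0.555 in WT for btg2.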

How the results depend on the processing

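No paired analysis was possible because each group has 1 library and no result comes from a test. Pseudocounts of 0.1 and 5, no filter, a filter at a mean of 5 FPKM, TPM and median-ratio scaling were tried on the counts of the 9 genes called. Every count stayed within 1.5 times the reported one, and the counts that moved were 8 in place of 9 genes for the quotient of stage changes with pseudocount 5 (figla, at 0.83), 8 in place of 9 lower in WT over time with the filter at 5, which left out figla, and 4 in place of 5 lower in Mybx1 over time with median-ratio scaling. Small differences at 0 hpf changed sign for mos with TPM and with median-ratio scaling, and for org with median-ratio scaling. At 6 hpf the median of the meiosis list, Mybx1 against WT, turned to -0.37 with median-ratio scaling, and those of the other 4 lists kept their sign with TPM and median-ratio scaling. The counts over all genes depended more on the settings. For Mybx1 at 6 against 0 hpf, 1134 rose and 1050 fell as reported, 502 and 550 with pseudocount 5, and 410 and 863 with the filter at 5. For WT at 6 against 0 hpf 3637 rose and 6183 fell as reported, 2233 and 4439 with pseudocount 5, and 2003 and 4800 with the filter at 5. With TPM 3660 rose and 7371 fell in this comparison. With median-ratio scaling 5403 rose and 4205 fell, so the larger count changed sides. For Mybx1 against WT at 0 hpf 1222 were higher and 926 lower as reported, 358 and 439 with pseudocount 5, and 524 and 613 with the filter at 5. At 6 hpf 6035 were higher and 3284 lower as reported, 3863 and 1991 with pseudocount 5, and 4167 and 2085 with the filter at 5. With TPM 7406 were higher and 3141 lower at 6 hpf. With median-ratio scaling 3946 were higher and 5398 lower at 6 hpf, so the larger count changed sides here too. The depth limits WT at 6 hpf most, where gdf9 rests on 8 and mos on 17 reads.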
